A study of Mus musculus with 5 samples.

Results

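Expression of 10 genes of microfold cells and of the RANK pathway was followed across 5 single-cell RNA sequencing libraries of mouse trachea. The genes were Spib, Gp2, Ccl9, Ccl20, Tnfaip2, Tnfrsf11a, Tnfrsf11b, Marcksl1, Relb and Aif1, which are 10 of 30907 mouse features, found in every library. They were chosen by name, with earlier results of these data known. All mice were wild-type 129 X1/S1 adults. Donor-derived cells (n = 2 libraries, 40 and 56 days after transplantation) were cells sorted as positive for Calcein Blue, a dye of live cells, and for GFP from tracheas that had been injured with 2% polidocanol, a detergent, and had then received basal cells made from mouse embryonic stem cells (iBCs). Endogenous cells (n = 2 libraries, the same days) were the Calcein Blue-positive, GFP-negative cells of the same tracheas, so they had met the injury and the transplant too. The control (n = 1 library) was the Calcein Blue-positive cells of a trachea with neither. Each day was 1 recipient, so the day and the animal cannot be told apart, and p-values measure only the spread between these libraries. The libraries held between 808 and 1743 barcodes and between 16580940 and 25569394 unique molecular identifiers (UMIs, counts of captured RNA molecules), and 6554 cells were kept, with a median of 9999 to 12783 UMIs per cell across libraries. In the control 192 barcodes with over 10% human counts were left out, which left 7493284 UMIs. No pair of libraries shared more than 2 cell barcodes.

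Microfold (M) cells are epithelial cells that lie over lymphoid tissue and carry particles and microbes from the lumen to immune cells below. Their formation is best known in the gut, where the ligand RANKL (Tnfsf11) binds its receptor RANK (Tnfrsf11a) on epithelial cells and turns on NF-kB members such as Relb and the ETS transcription factor Spib. Gp2 is a receptor for bacteria on the apical surface of mature gut M cells, Ccl20 and Ccl9 are chemokines that draw cells bearing Ccr6 and Ccr1, and Tnfaip2 takes part in membrane protrusion. Tnfrsf11b encodes osteoprotegerin, a secreted decoy that binds RANKL, Marcksl1 is a membrane-linked actin regulator, and Aif1 binds actin and is best known in macrophages. In the airway Spib is also a transcript of tuft cells, and in the blood lineage it is one of B cells and plasmacytoid dendritic cells.

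The 250 bases before the start site are shown for the 4 members whose RNA was most abundant in the Spib-high cells described next, because each held a match to the NF-kB consensus, the sequence bound by the transcription factors that RANK signalling turns on. RefSeq sequences of build GRCm38.p6 were found for 8 of 10 members, and Tnfrsf11b and Relb are named only. Both strands were searched over 300 bases that ran to 50 bases after the start, and the capitals mark the matched bases, read 5′ to 3′ on the gene's strand. The regions were chr7:44532072-44532321 on the minus strand for Spib, chr11:83578637-83578886 on the minus strand for Ccl9, chr1:83116516-83116765 on the plus strand for Ccl20 and chr12:111442411-111442660 on the plus strand for Tnfaip2.
Spib: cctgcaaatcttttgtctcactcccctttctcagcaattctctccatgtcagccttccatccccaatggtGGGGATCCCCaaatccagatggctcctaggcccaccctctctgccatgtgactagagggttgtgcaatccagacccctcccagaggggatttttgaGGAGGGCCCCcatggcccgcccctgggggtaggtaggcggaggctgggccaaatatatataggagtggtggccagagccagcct
Ccl9: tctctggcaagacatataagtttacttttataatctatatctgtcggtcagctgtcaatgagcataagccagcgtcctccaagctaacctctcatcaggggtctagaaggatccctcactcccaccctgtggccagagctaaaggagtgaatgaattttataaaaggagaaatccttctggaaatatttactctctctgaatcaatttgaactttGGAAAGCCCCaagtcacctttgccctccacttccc
Ccl20: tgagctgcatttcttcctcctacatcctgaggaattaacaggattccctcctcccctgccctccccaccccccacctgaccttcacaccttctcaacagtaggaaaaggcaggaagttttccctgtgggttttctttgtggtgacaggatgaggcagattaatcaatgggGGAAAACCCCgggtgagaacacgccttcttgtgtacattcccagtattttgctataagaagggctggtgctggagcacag
Tnfaip2: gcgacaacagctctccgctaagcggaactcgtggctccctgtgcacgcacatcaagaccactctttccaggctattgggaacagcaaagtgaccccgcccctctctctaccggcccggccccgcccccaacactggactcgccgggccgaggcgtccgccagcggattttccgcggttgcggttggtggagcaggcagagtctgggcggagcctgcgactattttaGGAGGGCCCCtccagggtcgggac
Spib held 2 matches and the other 3 genes 1 each, while Gp2, Tnfrsf11a, Marcksl1 and Aif1 held none. Across all 32851 RefSeq windows of this length, 8.46% held a match. The core GAGGAAGT, the sequence preferred by Spib and its relative PU.1, was in 0 of the 8 windows and in 3.20% of all windows. A match is a run of letters and was not tested for binding.

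Most of the Spib RNA of the epithelium lay in a small group of cells. Clustering of all cells gave 25 clusters, and cluster 10 was led by Ccl9, Spib, Serpinb1a, Wfdc18, Fabp5, Ccl20, Fxyd2 and Tnfaip2. It keeps its number because no marker list names it, and there was no list for microfold cells among them. Its leading genes helped to define it, so their levels there are a description without a test. Cluster 10 held 216 donor-derived cells at day 40 and 27 at day 56, against 9 endogenous cells at day 40 and 8 at day 56, and no control cell. As a share of donor-derived epithelium that came to 12.8% at day 40, with a Clopper-Pearson 95% interval of 11.3 to 14.5%, and to 1.56% at day 56 (1.03 to 2.26%). In endogenous epithelium the shares were 0.829% (0.380 to 1.57%) and 0.994% (0.430 to 1.95%). In the control, 0 of 609 epithelial cells allows a share of up to 0.604% by the same interval, and intervals here and below cover counting error only. Counted without clusters, 206 and 22 donor-derived epithelial cells held 10 or more Spib UMIs, against 10 and 8 endogenous cells and 0 control cells. The day 40 donor-derived library thus stood apart from the other 4. Epcam, the general epithelial adhesion gene, was found in all 260 cells of the cluster, and Ptprc, the general immune gene, in 3, 0, 0 and 1 cells of the 4 libraries. A transcript of the EGFP reporter was found in 118 of 216 and 16 of 27 donor-derived cells of the cluster, and in 0 of 9 and 0 of 8 endogenous ones.

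Within cluster 10 Spib reached 2128 and 1791 CPM (UMIs of the gene per 1000000 UMIs of the summed cells) in donor-derived cells at days 40 and 56, against 1928 and 1523 CPM in endogenous cells. A cell of the cluster carried a median of 35 and 28 Spib UMIs in donor-derived cells and 32 and 30 in endogenous cells. The groups overlapped for Spib. Ccl9 reached 4090 and 3352 CPM in donor-derived cells, against 3812 and 3469 CPM in endogenous cells. Ccl20 had the most UMIs, which count molecules and are not scaled by transcript length, with 6959 and 8614 CPM in donor-derived cells, against 10050 and 11976 CPM in endogenous cells. Tnfaip2 lay at 1860 and 1840 CPM in donor-derived cells, against 1928 and 1569 CPM in endogenous cells. Ccl20 was lower in each donor-derived library than in each endogenous one, whereas Ccl9 and Tnfaip2 overlapped between the groups. In the edgeR test between the groups described below, Ccl20 was not called (log2 fold change −0.52 ± 0.18, adjusted p = 0.165). The share of all genes without overlap was not counted.

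Gp2 was found in a minority of these cells. Its UMIs were found in 55 of 216 (25.5%) and 6 of 27 (22.2%) donor-derived cells of cluster 10, and in 3 of 9 and 2 of 8 endogenous ones. A single cell held up to 165, 62, 19 and 46 of them, while the median was 0 in each library. As a sum Gp2 came to 333 and 261 CPM in donor-derived cells, against 339 and 243 CPM in endogenous cells. Relb was found in most cells of the cluster, with 187.5 and 177.5 CPM in donor-derived cells, against 238 and 155 CPM in endogenous cells. Marcksl1 stood at 394 and 393 CPM in donor-derived cells, against 773 and 372 CPM in endogenous cells. In the endogenous day 40 library 54 of its 107 UMIs lay in 1 of the 9 cells, and the median per cell was 5 and 5 UMIs in donor-derived cells, against 8 and 9 in endogenous cells. A cell of cluster 10 carried a median of 7 and 7 of the 10 members in donor-derived cells and 8 and 8.5 in endogenous cells, against 0 to 2 in epithelial cells outside this cluster and the tuft-like cells.

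**Figure D1:**
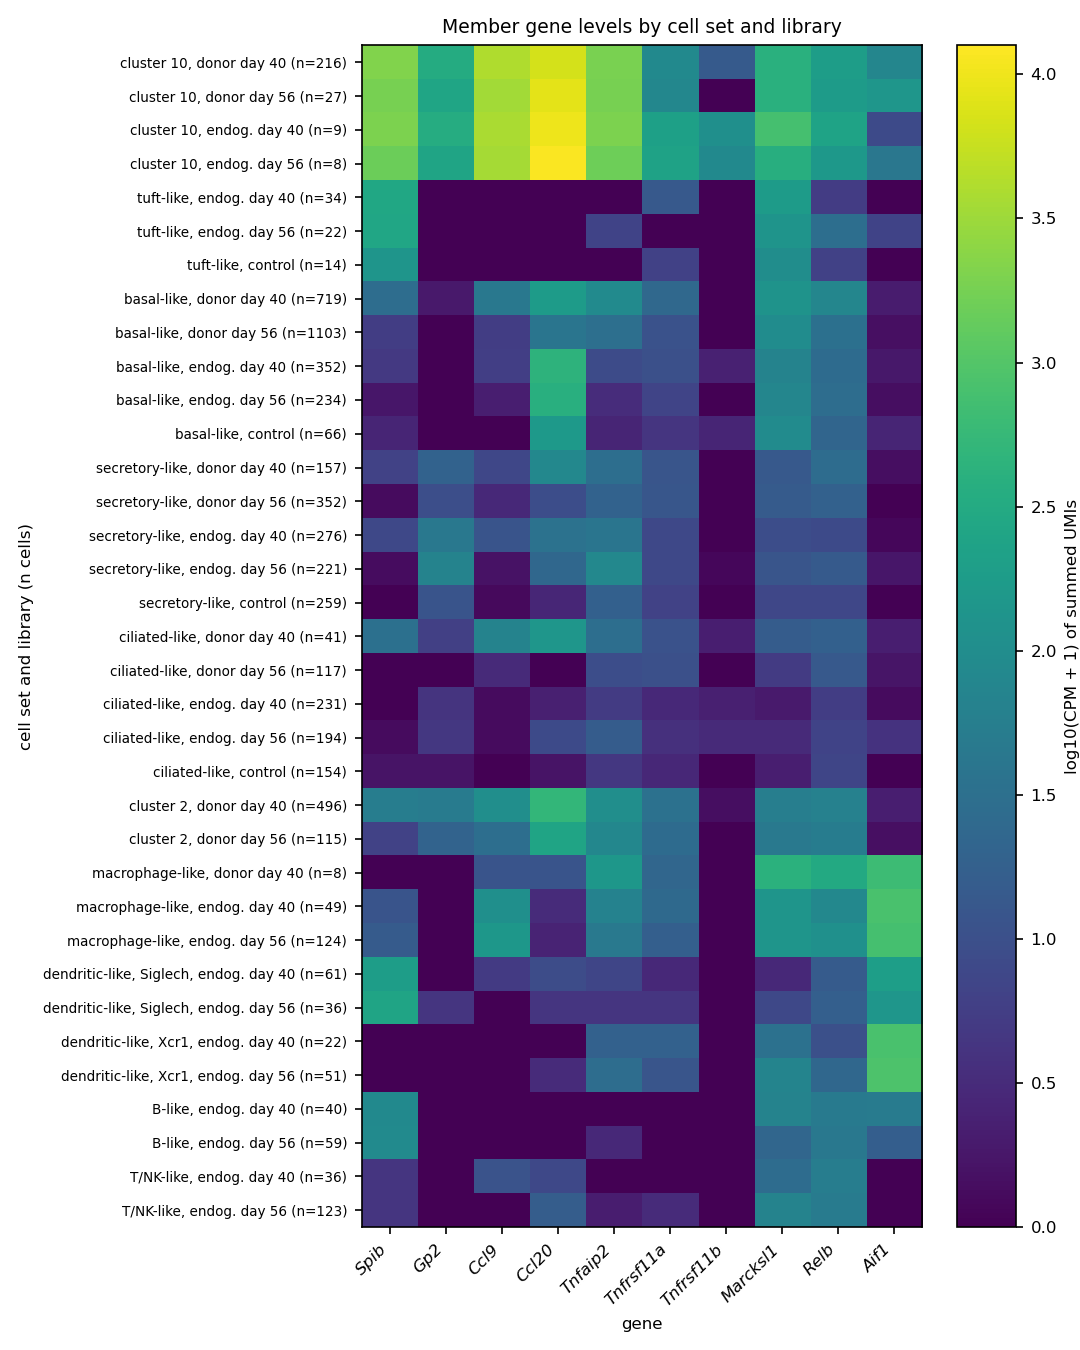
Heat map of the levels of the 10 members, as log10 of CPM + 1, in each cell set (rows, by library) with at least 5 cells. Brighter is higher: cluster 10 is the brightest block for Spib, Ccl9, Ccl20, Tnfaip2 and Gp2, tuft-like cells hold Spib and Marcksl1 without Gp2, Ccl9 or Ccl20, and Aif1 is highest in macrophage-like and dendritic-like cells.

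Tuft-like cells, named from marker genes that do not include Spib, also carried Spib in each library. They numbered 4 and 2 donor-derived cells, against 34 and 22 endogenous and 14 control cells. The 4 donor-derived cells of day 40 held more of the ionocyte markers (3351 CPM summed over the list) than of the tuft markers (2955 CPM), so their name is uncertain. Spib stood at 163 and 274 CPM in donor-derived tuft-like cells, against 273 and 270.5 CPM in endogenous tuft-like cells, with 138 CPM in the control. The donor-derived values rest on 7 Spib UMIs in 2 cells at day 40 and 7 in 1 cell at day 56, so they give no firm level. Gp2, Ccl9 and Ccl20 were at 0 in the tuft-like cells of all 5 libraries, and Marcksl1 was present in each, at 93.1 and 274 CPM in donor-derived cells, against 175 and 132 CPM in endogenous cells, with 101 CPM in the control. A general immune transcript, Ptprc, was found in 13 of 34, 8 of 22 and 6 of 14 tuft-like cells of the endogenous day 40, endogenous day 56 and control libraries, whose median depths were 6087, 7238.5 and 12315 UMIs.

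Of all Spib UMIs of the epithelium, cluster 10 held 91.8% of 9981 and 91.9% of 867 in the donor-derived libraries, against 68.3% of 391 and 83.8% of 352 in the endogenous ones. Counted by cells, the Spib-positive epithelium (at least 1 UMI) had another make-up in each group. Donor-derived libraries had 398 and 51 such cells, of which 53.8% and 51.0% were of cluster 10 and 0.503% and 1.96% tuft-like. Endogenous libraries had 53 and 32, of which 17.0% and 25% were of cluster 10 and 47.2% and 56.3% tuft-like, and 13 of the 15 in the control were tuft-like.

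Spib was low in the main epithelial types, and its levels there stand beside those of ciliated-like cells. Ciliated-like cells held a Spib UMI in 4 of 41 (9.76%) and 0 of 117 donor-derived cells, in 0 of 231 and 1 of 194 (0.515%) endogenous cells and in 1 of 154 (0.649%) control cells. In the donor-derived day 40 library 23 of the 26 Spib UMIs of ciliated-like cells lay in 1 cell, and the sum came to 31.8 CPM at a median depth of 17823 UMIs. Basal-like cells of that library held Spib in 75 of 719 cells (10.4%) at 27.7 CPM and a median depth of 10679 UMIs, with 54 of its 244 Spib UMIs in 1 cell. The ciliated-like level of that library thus rests on 1 cell, and the part of stray RNA in the Spib of basal-like cells was not tested. Per Spib UMI there were 1.92 Ccl9, 3.27 Ccl20 and 0.874 Tnfaip2 UMIs in cluster 10 of this library and 2.08, 4.54 and 0.923 in its ciliated-like cells, mostly from that 1 cell. In its basal-like cells the ratios were 1.52 for Ccl9 but 6.48 for Ccl20 and 3.33 for Tnfaip2.

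A further set of donor-derived cells carried Ccl20 at an intermediate level. Cluster 2, which no marker list named, was led by Upk3a, Cldn18 and Clu and held 496 and 115 donor-derived cells, 2 and 2 endogenous cells and no control cell. In its donor-derived cells Ccl20 came to 523 and 247 CPM, Ccl9 to 105.7 and 29.7 CPM, Tnfaip2 to 104 and 77.0 CPM and Gp2 to 49.0 and 19.01 CPM at days 40 and 56. Spib stood at 54.6 and 5.36 CPM there, and each of these values was higher at day 40. Cluster 19, led by the cell-cycle genes Cenpf, Top2a and Mki67, held 43 donor-derived cells at day 40, with Spib at 99.2 CPM, Ccl20 at 474 CPM and Tnfaip2 at 191 CPM. Of the 115 Spib UMIs of these cells, 43 lay in a single cell. No Spib UMI was found in its 12 donor-derived cells of day 56, its 7 endogenous cells of day 56 or its 4 control cells. The 26 endogenous cells of day 40 held 6.

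Among immune cells, which came almost wholly from the endogenous libraries (208 and 393 cells), Spib and Aif1 were highest in different types. Spib was found at 192 and 247 CPM in the dendritic-like cluster led by Siglech, a gene of plasmacytoid dendritic cells, and at 85.9 and 91.6 CPM in B-like cells. In T/NK-like cells it was at 3.35 and 3.31 CPM, and it was at 0 in the dendritic-like cluster led by Xcr1 of both days. Aif1 was highest in that Xcr1-led cluster, at 848 and 893 CPM, and in macrophage-like cells, at 847 and 784 CPM. Macrophage-like cells also held Ccl9 at 108 and 148 CPM and Relb at 82.1 and 115 CPM. Tnfrsf11b was at 0 in every immune set.

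The partners of the members lay in different cells. Tnfsf11, the ligand RANKL, had no UMI in any epithelial cell of the 5 libraries. T/NK-like cells held 21 of 21 of its immune UMIs in the endogenous day 40 library (6 of 36 cells, 70.3 CPM) and 69 of 70 in the day 56 library (35 of 123 cells, 76.2 CPM). Ccr6, the receptor for Ccl20, was highest in B-like cells, at 385 and 230 CPM, followed by T/NK-like cells at 120 and 83.9 CPM. Ccr1, a receptor for Ccl9, was highest in macrophage-like cells, at 151 and 148 CPM. Because the immune cells of the donor-derived libraries numbered 11 and 1, no such levels can be given there.

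Over the whole epithelium all 10 members stood highest in the donor-derived day 40 library, and none passed the test between donor-derived and endogenous cells. The comparison asks whether the epithelium grown from transplanted cells carries these transcripts at another level than the recipient's own. Of 13736 genes tested, 13.2% were called (edgeR quasi-likelihood test on counts summed per library, Benjamini-Hochberg adjusted p under 0.05), 3.58% higher and 9.62% lower, and 0 of the 10 members. Unadjusted p was under 0.05 for 4 members and for 4307 genes in all, and DESeq2 called 3 members and 2672 genes. These sums take in both the number of cluster 10 cells and the level in each, which cannot be told apart in them. The median log2 fold change was 1.62 over the members and 0.01 over all genes tested.

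Spib came to 396 and 40.8 CPM in donor-derived epithelium at days 40 and 56, against 25.6 and 26.3 CPM in endogenous epithelium and 3.80 CPM in the control. Ccl9 came to 752 and 76.2 CPM in donor-derived epithelium, against 41.6 and 50.9 CPM in endogenous epithelium, with 0.136 CPM in the control. Both were higher in each donor-derived library, but 15.5-fold and 18.1-fold at day 40 and only 1.55-fold and 1.497-fold at day 56. Their log2 fold changes were 2.93 ± 1.09 (SE, adjusted p = 0.160) for Spib and 3.02 ± 1.11 (adjusted p = 0.156) for Ccl9. Ccl20 came to 1444 and 226.7 CPM in donor-derived epithelium, against 231 and 264 CPM in endogenous epithelium, with 16.7 CPM in the control, so that the day 56 libraries ran the other way. Gp2 came to 73.8 and 9.74 CPM in donor-derived epithelium, against 19.7 and 31.1 CPM in endogenous epithelium, with 5.70 CPM in the control, and the groups overlapped. Tnfaip2 lay at 394 and 69.9 CPM in donor-derived epithelium, against 41.3 and 62.4 CPM in endogenous epithelium, with 10.0 CPM in the control.

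Of the 10 members, Marcksl1 had the smallest standard error of its fold change. It came to 137.6 and 69.9 CPM in donor-derived epithelium, against 39.4 and 37.5 CPM in endogenous epithelium, with 23.2 CPM in the control (log2 fold change 1.31 ± 0.34, adjusted p = 0.0783). Relb came to 85.3 and 31.9 CPM in donor-derived epithelium, against 15.8 and 19.01 CPM in endogenous epithelium, with 7.32 CPM in the control (1.62 ± 0.50, adjusted p = 0.111). Both were higher in each donor-derived library, and DESeq2 called both, at adjusted p = 0.00208 and 0.00458, and Aif1 at 0.0132. Tnfrsf11a, the RANK receptor, came to 36.0 and 13.5 CPM in donor-derived epithelium, against 9.63 and 10.6 CPM in endogenous epithelium, with 4.20 CPM in the control (1.17 ± 0.49, adjusted p = 0.198). Aif1 lay at 13.6 and 3.34 CPM in donor-derived epithelium, against 0.590 and 1.87 CPM in endogenous epithelium, with 0.136 CPM in the control (2.67 ± 0.93, adjusted p = 0.141). Tnfrsf11b was near its detection limit, at 2.42 and 0 CPM in donor-derived epithelium, against 1.64 and 1.87 CPM in endogenous epithelium, with 0.136 CPM in the control.

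**Figure D2:**
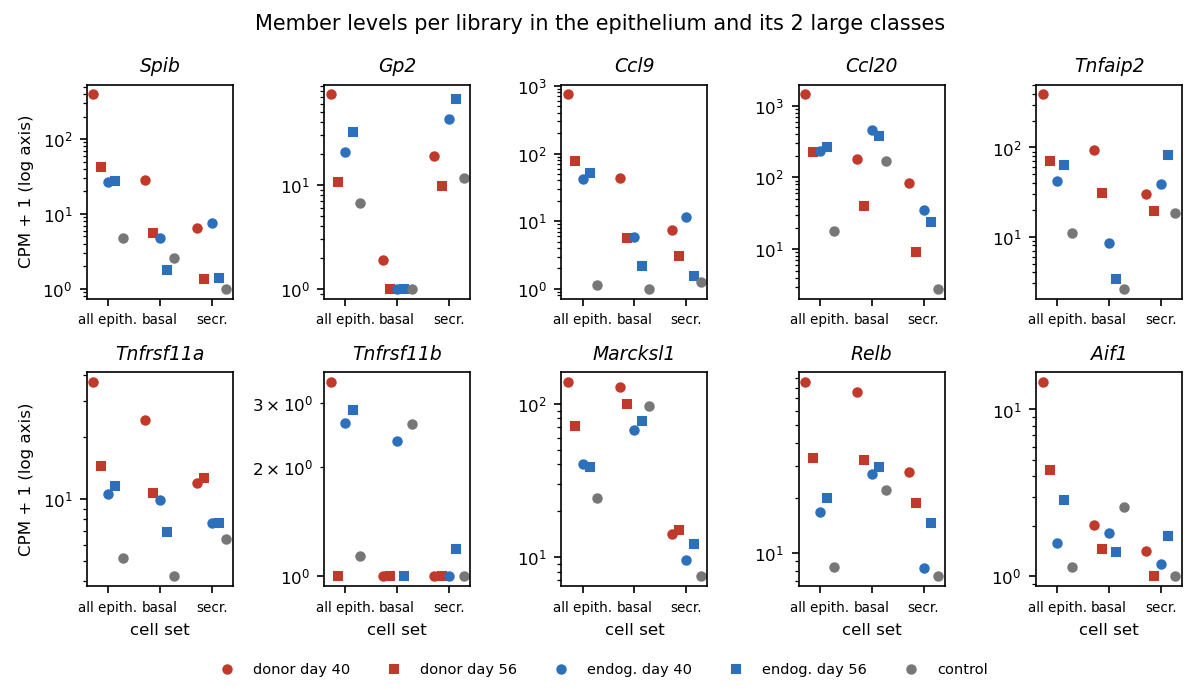
CPM + 1 (log axis) of the 10 members in all epithelial cells, basal-like cells and secretory-like cells, 1 point per library, donor-derived left of endogenous left of control. In all epithelial cells the donor-derived day 40 point stands highest for each member, and in basal-like cells Ccl20 lies below both endogenous points in both donor-derived libraries.

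The size of these differences rests on the donor-derived day 40 library and, for some members, on the Spib-positive cells. Without that library the log2 fold change of Spib was 0.57 (adjusted p = 0.0145), of Ccl9 0.64 (adjusted p = 0.0187), of Marcksl1 0.78 (adjusted p = 0.00181), of Relb 0.80 (adjusted p = 0.00925) and of Gp2 −1.46 (adjusted p = 0.0443), with the lone donor-derived library taken to vary like the endogenous ones. Without the day 56 donor-derived library the same fit gave 3.80 for Spib, 3.90 for Ccl9 and 2.42 for Ccl20. Without the Spib-positive cells the value was −0.14 for Ccl20, −0.97 for Gp2 and −0.46 for Aif1, and Marcksl1 was called higher (0.99, adjusted p = 0.0101). Without the endogenous day 40 or day 56 library edgeR called 0 of 14276 and 0 of 14313 genes, with unadjusted p under 0.05 for 2288 and 2235.

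From the list of 18 other microfold genes, 14 were tested and 1 was higher, Onecut2, a transcription factor. It was at 12.0 and 6.17 CPM in donor-derived epithelium and 0 in both endogenous libraries. Between the group means it was at least 43.2-fold higher against a floor of 3 UMIs per library, a bound that does not hold for each library alone. From 23 genes of RANK signalling, Traf2, an adaptor of TNF receptors, was higher (28.7 and 22.0 CPM in donor-derived epithelium, against 13.8 and 12.5 CPM in endogenous epithelium, log2 fold change 0.83 ± 0.17, adjusted p = 0.0453). Ikbkg, a subunit of the kinase that frees NF-kB, was lower (14.05 and 12.8 CPM in donor-derived epithelium, against 22.8 and 23.2 CPM in endogenous epithelium, −0.90 ± 0.13, adjusted p = 0.0249). Of 10 other TNF-family and chemokine genes, Cxcl5, a neutrophil chemokine, was higher (2.32 ± 0.38, adjusted p = 0.0328) and Ccl28, a mucosal chemokine, lower (−2.49 ± 0.39, adjusted p = 0.0280). All 5 were lost without either endogenous library, at adjusted p = 0.125 to 0.310.

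In basal-like cells, the progenitors of the airway epithelium, Ccl20 was lower and Tnfaip2 higher in both donor-derived libraries, while none of the 7 members tested was called (10.7% of 11482 genes were, 4.1% higher and 6.61% lower, with unadjusted p under 0.05 for 2678, and DESeq2 called Tnfaip2 and 1206 genes). Ccl20 came to 179 and 38.4 CPM in donor-derived basal-like cells, against 453 and 379 CPM in endogenous basal-like cells, with 166 CPM in the control (log2 fold change −2.06 ± 0.87, adjusted p = 0.307). The share of basal-like cells with a Ccl20 UMI was 22.0% and 3.45% among donor-derived cells, against 25.6% and 20.9% among endogenous cells, with 16.7% in the control. Tnfaip2 came to 92.3 and 29.97 CPM in donor-derived basal-like cells, against 7.56 and 2.36 CPM in endogenous basal-like cells, with 1.61 CPM in the control (3.39 ± 0.92, adjusted p = 0.142). The groups did not overlap for either gene, and the share of all genes without overlap was not counted. Without the filter on low counts all 7 were called, Ccl20 lower and the others higher, among 2469 genes called in all. With the recipient as a block, which pairs the libraries of an animal, Tnfaip2 (3.49, adjusted p = 6.85e-05), Spib (2.69, adjusted p = 0.00115), Ccl9 (2.82, adjusted p = 0.000944) and Tnfrsf11a (1.01, adjusted p = 0.0317) were called higher. That block called 1911 genes in all. Donor-derived basal-like cells fell mostly into clusters 0, 5, 7 and 8 and endogenous ones into cluster 1 (99.4% and 99.6%), and whether that bears on these values was not tested.

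From the lists, 2 of 11 microfold genes were higher and 1 lower in donor-derived basal-like cells. Mfge8, a bridge to dying cells, stood at 243 and 188 CPM in donor-derived cells, against 102 and 99.3 CPM in endogenous cells (log2 fold change 0.97 ± 0.16, adjusted p = 0.0101), and the protease gene Ctsh at 209 and 188 CPM in donor-derived cells, against 111 and 98.1 CPM in endogenous cells (0.80 ± 0.14, adjusted p = 0.0122). Icosl, a costimulatory ligand, was lower (−2.87 ± 0.65, adjusted p = 0.0393). These 3 lost the call without either endogenous library, at adjusted p = 0.106 to 0.357. Of 23 RANK signalling genes Traf2 was higher (1.004 ± 0.230, adjusted p = 0.0357, lost without either endogenous library at 0.0867 and 0.209). Of 6 partners Cxcl1, a neutrophil chemokine, had no UMI in donor-derived basal-like cells and 2.97 and 12.2 CPM in endogenous ones. It was at least 24.7-fold lower between the group means, not in each library, and was called under each alternative.

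In secretory-like cells Gp2 fell: 18.2 and 8.70 CPM in donor-derived cells, against 42.0 and 66.5 CPM in endogenous cells and 10.6 CPM in the control. It was the only member called of 8 tested, where 15.2% of 10609 genes were called, 6.26% higher and 8.93% lower (log2 fold change −2.36 ± 0.44, adjusted p = 0.0448). Without the donor-derived day 56 library it was −1.81 with adjusted p = 0.0633, and at a finer clustering (resolution 2) −1.93 with adjusted p = 0.174. Tnfaip2 was also lower in both donor-derived libraries, at 28.8 and 18.2 CPM, against 37.7 and 81.4 CPM in endogenous cells, and was not called (−1.61 ± 0.60, adjusted p = 0.272). Ccl20 stood at 81.7 and 8.20 CPM in donor-derived cells, against 34.6 and 22.7 CPM in endogenous cells, with 1.80 CPM in the control, with overlap between the groups. Donor-derived secretory-like cells lay in cluster 4 (96.8% and 98.9%) and endogenous ones in clusters 3 and 11, and whether that bears on these values was not tested.

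Of 11 microfold genes tested in secretory-like cells, 3 were higher and 3 lower. Mfge8 (203 and 131 CPM in donor-derived cells, against 59.7 and 60.2 CPM in endogenous cells, log2 fold change 1.25 ± 0.18, adjusted p = 0.00074) and Ctsh (0.64 ± 0.12, adjusted p = 0.00123) were higher, as in basal-like cells. Onecut2 was at 7.196 and 1.84 CPM in donor-derived cells and 0 in endogenous cells, at least 8.21-fold higher between the group means, not in each library. Serpinb1a, an inhibitor of neutrophil proteases, was lower (44.0 and 38.5 CPM in donor-derived cells, against 63.1 and 68.0 CPM in endogenous cells, −0.88 ± 0.14, adjusted p = 0.000466). These 4 were called under each alternative. Of 22 RANK signalling genes Nfkbie (1.33 ± 0.42, adjusted p = 0.0454) and Traf2 (0.83 ± 0.27, adjusted p = 0.0478) were higher, and Ikbkg (−0.81 ± 0.23, adjusted p = 0.0235) and Fos (−0.76 ± 0.17, adjusted p = 0.00666) lower. Of 7 partners Cxcl5 was higher (1.37 ± 0.26, adjusted p = 0.00437), and Ltb (−2.47 ± 0.69, adjusted p = 0.0241) and Ccl28 (−2.30 ± 0.49, adjusted p = 0.00405) were lower. These 7 were lost in 1 or more alternatives, with adjusted p up to 0.841.

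Summed over cells, 6 of the other members were higher in cells with a Spib UMI. The comparison of Spib-positive with Spib-negative epithelial cells, with the library as a block, asked which genes go with Spib, and Spib itself was left out. Of the 9 other members 7 passed the filter on low counts, and 6 of these rose in Spib-positive cells, where 6.73% of 12076 genes were called higher and 6.99% lower. The members were chosen with earlier results of these data known, so this count is not independent of those results. Ccl9 had the largest fold change of all genes, at 2462 and 1831 CPM in Spib-positive against 20.4 and 3.63 CPM in Spib-negative donor-derived cells, and 1004 and 1525 CPM against 1.43 and 0.387 CPM in endogenous cells. In the control Ccl9 was at 0 in Spib-positive cells and 0.139 CPM in Spib-negative cells. Its log2 fold change was 8.78 ± 0.94 (adjusted p = 0.00593).

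Ccl20 had rank 44 by fold change (log2 5.05 ± 0.78, adjusted p = 0.0181), at 4392 and 5059 CPM in Spib-positive against 182 and 26.9 CPM in Spib-negative donor-derived cells, and 2924 and 5361 CPM against 119 and 89.6 CPM in endogenous cells. Tnfaip2 had rank 73 (3.93 ± 0.81, adjusted p = 0.0387). The RANK receptor gene Tnfrsf11a (2.62 ± 0.37, adjusted p = 0.00463), Marcksl1 (2.27 ± 0.19, adjusted p = 8.0e-05) and Relb (1.93 ± 0.31, adjusted p = 0.00645) rose less. Marcksl1 was higher in Spib-positive cells of 5 of 5 libraries, including 94.1 against 21.3 CPM in the control, whereas Relb was higher in 4 of 5. Gp2 stood at 2.85 ± 0.71 (adjusted p = 0.0617) and was not called, with 198 and 139 CPM in Spib-positive against 20.5 and 4.41 CPM in Spib-negative donor-derived cells, and 77.0 and 160 CPM against 17.3 and 26.7 CPM in endogenous cells. In the control Gp2 ran the other way, at 0 in Spib-positive and 5.85 CPM in Spib-negative cells, and without the control Gp2 was called (3.10, adjusted p = 0.0315). Aif1 and Tnfrsf11b did not pass the filter. Aif1 came to 43.1 and 77.1 CPM in Spib-positive against 1.02 and 0.294 CPM in Spib-negative donor-derived cells.

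How far these calls rest on cluster 10 differed between members. Without its cells Ccl9 (5.22, adjusted p = 0.00341), Tnfrsf11a and Marcksl1 were still called, and Ccl20 (2.79, adjusted p = 0.170), Tnfaip2 (1.37, adjusted p = 0.515) and Relb (1.16, adjusted p = 0.0747) were not, and Gp2, not called with them, stood at −0.0245 without them. Ccl20 was also lost without the donor-derived day 40 (0.0778), the endogenous day 40 (0.0583) or the endogenous day 56 library (0.0579) and with cells thinned to 5000 UMIs (0.117), and Tnfaip2 without any 1 of the 4 recipient libraries (0.109 to 0.162). Without the library block Relb was lost (0.107). Median depth was 16977 and 14144 UMIs in Spib-positive against 11632 and 9932 in Spib-negative donor-derived cells, 7506 and 9825.5 against 11941 and 13267 in endogenous cells, and 10284 against 10394.5 in control cells.

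In the donor-derived day 40 library the levels followed the number of Spib UMIs in a cell. Ccl9 stood at 20.4, 97.1, 1113 and 3836 CPM in cells with 0, 1, 2 to 9 and 10 or more Spib UMIs (1284, 109, 83 and 206 cells). Tnfaip2 stood at 60.2, 109, 355 and 1858 CPM in the same cells, and Tnfrsf11a at 20.7, 38.8, 61.8 and 87.8 CPM. In the endogenous day 56 library the cells with 2 to 9 Spib UMIs had Ccl9 at 0, and those with 10 or more had 3469 CPM. Across single cells the rank correlation of Ccl9 with Spib was 0.722 and 0.553 in donor-derived, 0.464 and 0.440 in endogenous and −0.006 in control epithelium. For Ccl20 it was 0.631 and 0.497 in donor-derived, 0.183 and 0.133 in endogenous and 0.032 in control epithelium, and for Gp2 0.231 and 0.142 in donor-derived and 0.009 and 0.031 in endogenous epithelium. Cells of a library share their depth and stray RNA, so these values describe the libraries and carry no test.

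**Figure D3:**
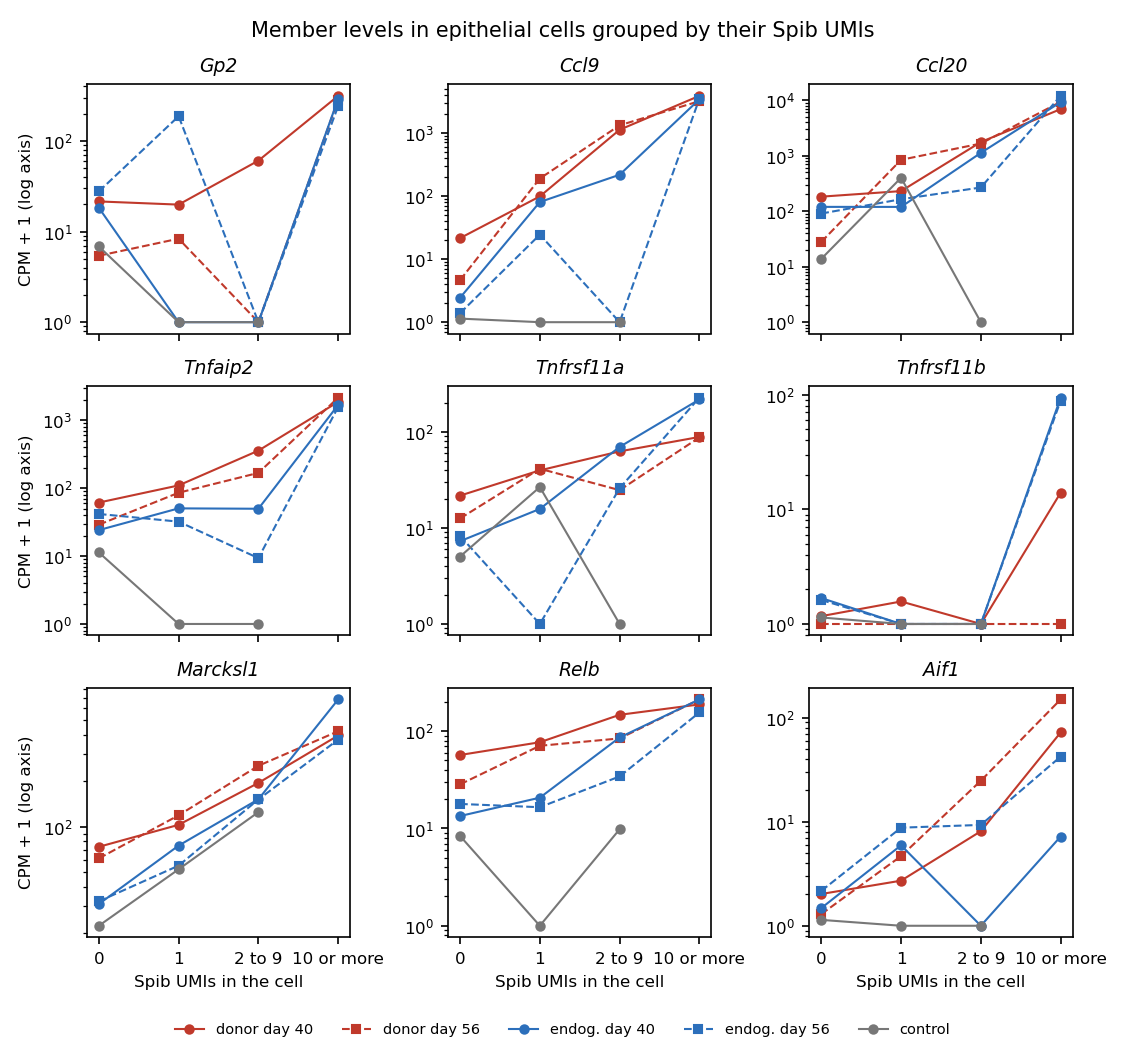
CPM + 1 (log axis) of the other 9 members in epithelial cells grouped by their number of Spib UMIs (0, 1, 2 to 9, 10 or more), with donor-derived libraries in red, endogenous in blue and the control in grey (circles and solid lines day 40, squares and dashed lines day 56). Ccl9, Ccl20 and Tnfaip2 lie at 1569 CPM or more in cells with 10 or more Spib UMIs in the 4 recipient libraries, and the control has no such cell.

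The genes most like Spib were chosen as the 10 largest fold changes among called genes that were higher in all 5 libraries and averaged at least 20 CPM in Spib-positive sums, a rule that 543 genes met. Among them were Rgs13 (log2 7.42 ± 0.24), Gnat3 (7.35), Trpm5 (7.31), Lrmp (7.26), Nrgn (7.05), Fyb (6.97), Wfdc18 (6.95), Strip2 (6.79) and Rac2 (6.77). Rgs13, Gnat3 and Trpm5 are markers of tuft cells, taste-like sensory cells, and Lrmp and Nrgn were among the leading genes of the tuft-like cells here. Lrmp stood at 3.57 and 46.2 CPM in Spib-positive donor-derived cells, against 786 and 682 CPM in endogenous ones, with 1448 CPM in the control. Nrgn stood at 2.12 and 10.7 CPM in donor-derived ones, against 220 and 296 CPM in endogenous ones, with 256 CPM in the control. Gnat3 stood at 3.44 and 3.56 CPM in Spib-positive donor-derived cells, against 555 and 583 CPM in endogenous ones, with 732 CPM in the control. Fyb, an adaptor of immune receptors, stood at 187 and 173 CPM in Spib-positive donor-derived cells, against 362 and 427 CPM in endogenous ones, with 340 CPM in the control, and Rac2, a GTPase of blood cells, at 162 and 193 CPM in donor-derived ones, against 78.6 and 172 CPM in endogenous ones, with 15.7 CPM in the control.

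Of the 13 other microfold genes tested, 2 rose in Spib-positive cells and 1 fell, where 6.73% of all 12076 genes were called higher and 6.99% lower. Sox8, a transcription factor of gut M cells, stood at 152 and 97.2 CPM in Spib-positive against 2.83 and 0.686 CPM in Spib-negative donor-derived cells, and 67.2 and 94.9 CPM against 0.410 and 0.387 CPM in endogenous cells (log2 fold change 6.65 ± 0.32, adjusted p = 4.0e-06). It was called under each alternative. Cxcl16 was higher (1.56 ± 0.30, adjusted p = 0.0151; 0.0524 to 0.182 in the alternatives that lost it, with a log2 fold change of 0.96 and adjusted p = 0.114 without cluster 10) and Atoh8 lower (−1.77 ± 0.45, adjusted p = 0.0276; 0.0653 to 0.364 in the alternatives that lost it, the highest without cluster 10, where it was −1.01). Both were lost without the library block (0.182 each), without the donor-derived day 56 or without the endogenous day 56 library, and Cxcl16 also in cells with at least 2 Spib UMIs. Atoh8 was also lost without the donor-derived day 40 library and without cells with an immune UMI.

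Of 23 RANK signalling genes, 10 rose and 1 fell. Traf1, an NF-kB-induced adaptor, stood at 66.0 and 55.7 CPM in Spib-positive against 5.10 and 1.91 CPM in Spib-negative donor-derived cells, and 59.0 and 36.1 CPM against 0.410 and 0.851 CPM in endogenous cells (log2 fold change 4.78 ± 0.48, adjusted p = 0.00211), and was called under each alternative. Nfkbie, an inhibitor of NF-kB, rose (2.55 ± 0.35, adjusted p = 0.00384), as did Nfkb2, the partner of Relb (1.79 ± 0.25, adjusted p = 0.00239). Without the library block both were lost (0.115 and 0.0684), and Nfkb2 also without cluster 10 (0.0550). Nfatc1, a transcription factor downstream of RANK in osteoclasts, was called higher (2.12 ± 0.45, adjusted p = 0.0152) but stood at 0.12 (adjusted p = 0.908) without tuft-like cells, at 0.93 (adjusted p = 0.175) without cells with an immune UMI, and at adjusted p = 0.0501 and 0.0781 without the endogenous day 40 or day 56 library. Of 7 partners 3 rose, Ltb, Cxcl16 and Tnfrsf1b, and Ltb (1.89 ± 0.51, adjusted p = 0.0330) and Tnfrsf1b (1.30 ± 0.34, adjusted p = 0.0302) were each lost when single recipient libraries were left out (adjusted p up to 0.271 and 0.145).

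Between donor-derived and endogenous Spib-positive cells, 4 of the 10 members were called higher in donor-derived cells, where 5.38% of 7642 genes were called higher and 7.22% lower. Spib chose these cells, so its own value is bound to that choice. They were Spib at 1321 and 1028 CPM in donor-derived against 641 and 795 CPM in endogenous cells (log2 fold change 0.75 ± 0.18, adjusted p = 0.0250), and Tnfaip2 at 1173 and 1086 CPM in donor-derived cells, against 478 and 698 CPM in endogenous cells (0.98 ± 0.19, adjusted p = 0.0081). Ccl9 (0.80 ± 0.23, adjusted p = 0.0477) and Relb (0.75 ± 0.20, adjusted p = 0.0339) were the others. All 4 were lost without the tuft-like cells, which make up much of the endogenous Spib-positive cells: adjusted p was 0.524 for Spib, 0.845 for Ccl9, 0.537 for Tnfaip2 and 0.682 for Relb, while Tnfrsf11a was then called lower (−1.10, adjusted p = 0.0387). Without the donor-derived day 40 library Spib (0.237), Ccl9 (0.258) and Relb (0.212) were lost, and Relb also without the donor-derived day 56 (0.0716) or endogenous day 56 library (0.0592). With the recipient as a block Ccl9 was lost (0.0684) and Aif1 was called higher (2.42, adjusted p = 0.00351). DESeq2 called neither Ccl9 (0.0748) nor Relb (0.147).

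Of the lists, 3 of 10 microfold genes, 4 of 22 RANK signalling genes and 1 of 6 partners were higher in donor-derived Spib-positive cells, and 1 RANK signalling gene lower. Birc2, a ubiquitin ligase of TNF receptor complexes, was higher (143 and 135 CPM in donor-derived cells, against 50.8 and 61.0 CPM in endogenous cells, log2 fold change 1.36 ± 0.21, adjusted p = 0.00198), and so was Prnp, the prion protein gene, a microbe receptor on gut M cells (671 and 522 CPM in donor-derived cells, against 282 and 246 CPM in endogenous cells, 1.20 ± 0.18, adjusted p = 0.00151). Nfatc1 was lower (6.22 and 7.11 CPM in donor-derived cells, against 45.9 and 40.7 CPM in endogenous cells, −2.74 ± 0.34, adjusted p = 0.000492). These 3 were called under each alternative, the one without tuft-like cells included. Mfge8 (1.27 ± 0.20, adjusted p = 0.00233), Ctsh (1.30 ± 0.25, adjusted p = 0.00943), Birc3 (1.45 ± 0.25, adjusted p = 0.00339), Nfkbie (0.82 ± 0.24, adjusted p = 0.0491) and Cxcl5 (4.01 ± 0.81, adjusted p = 0.0116) were called higher, but not without tuft-like cells (adjusted p = 0.0526 to 0.735).

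Inside cluster 10, a comparison added after the data had been seen, the RANK receptor and its decoy were lower in donor-derived cells. They were 2 of the 10 members called, where 4.9% of 4410 genes were called, 2.81% higher and 2.09% lower. Tnfrsf11a stood at 88.8 and 78.6 CPM in donor-derived cells, against 209 and 227 CPM in endogenous cells (log2 fold change −1.39 ± 0.24, adjusted p = 0.0069). It was found in 164 of 216 and 19 of 27 donor-derived cells and in 7 of 9 and 8 of 8 endogenous cells, with a median of 1 and 1 UMI per cell against 2 and 3.5. The groups did not overlap, and without the donor-derived day 40 library the call was lost (−1.42, adjusted p = 0.0765).

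Tnfrsf11b stood at 13.2 and 0 CPM in donor-derived cells of cluster 10, against 108 and 87.8 CPM in endogenous cells (log2 fold change −3.12 ± 0.55, adjusted p = 0.00892). In counts these were 57 UMIs in 7 of 216 cells and 0 UMIs in 27 cells of the donor-derived libraries, against 15 UMIs in 5 of 9 and 17 UMIs in 6 of 8 endogenous cells. It was called under each alternative, though the endogenous side rests on those 9 and 8 cells. Aif1 was higher in both donor-derived libraries, at 74.3 and 144 CPM, against 7.22 and 41.3 CPM in endogenous cells (1.81 ± 0.68, adjusted p = 0.219), and was called with the recipient as a block (2.13, adjusted p = 0.0120). Spib (0.16 ± 0.18, adjusted p = 0.727), Gp2 (0.04 ± 0.23, adjusted p = 0.969), Tnfaip2 (0.06 ± 0.17, adjusted p = 0.925) and Relb (−0.10 ± 0.25, adjusted p = 0.914) were each smaller in size than their SE. Spib and Tnfaip2 are leading genes that helped to define the cluster, so their likeness between the groups is bound to that choice of cells.

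**Figure D4:**
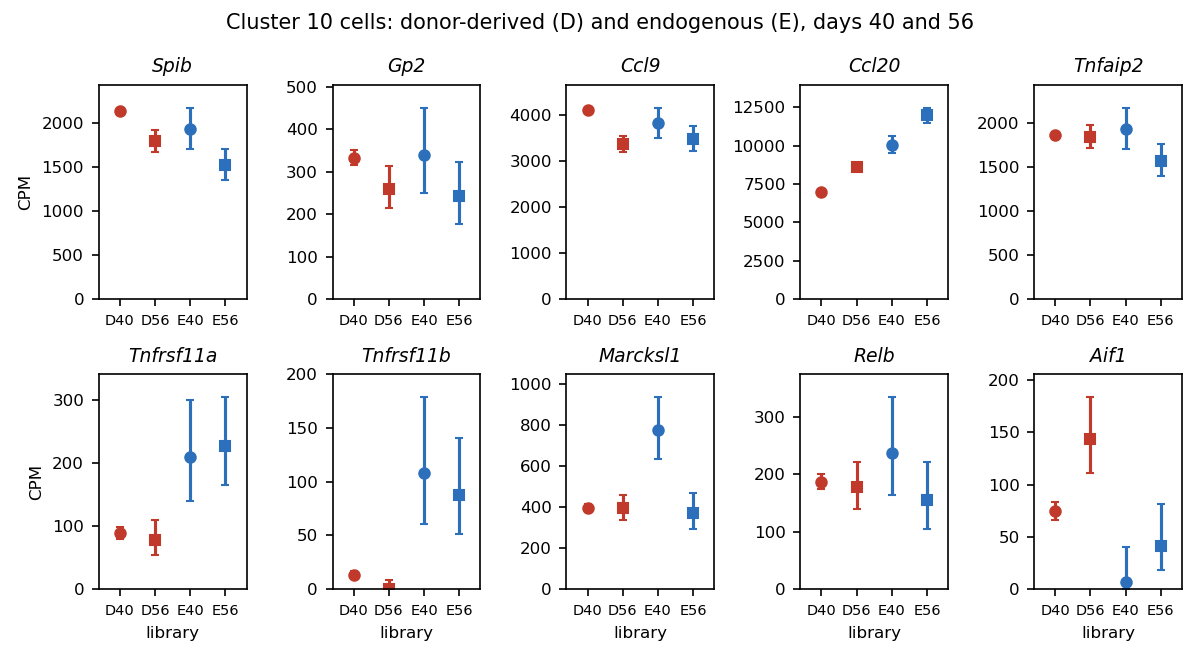
CPM of the 10 members in cluster 10 cells of the donor-derived day 40 and 56 and endogenous day 40 and 56 libraries, with exact Poisson 95% intervals that cover counting error only. Tnfrsf11a and Tnfrsf11b lie lower in both donor-derived libraries (88.8 and 78.6 against 209 and 227 CPM; 13.2 and 0 against 108 and 87.8 CPM), while Spib and Ccl9 overlap between the groups.

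Of the lists in cluster 10, Cxcl16 (267 and 227 CPM in donor-derived cells, against 513 and 444 CPM in endogenous cells, log2 fold change −0.96 ± 0.19, adjusted p = 0.0175), Serpinb6a (−0.80 ± 0.18, adjusted p = 0.0287) and Serpinb1a (−0.63 ± 0.16, adjusted p = 0.0487) were the 3 of 10 microfold genes called, all lower. Without the donor-derived day 40 or day 56 library all 3 were lost (adjusted p = 0.0669 to 0.561). Serpinb1a is a leading gene that helped to define the cluster, so its value is bound to that choice of cells. Of 16 RANK signalling genes Birc2 (170 and 182 CPM in donor-derived cells, against 79.4 and 61.9 CPM in endogenous cells, 1.30 ± 0.30, adjusted p = 0.0309) and Birc3 (1.53 ± 0.37, adjusted p = 0.0438) were higher. Birc2 was lost without the donor-derived day 40 (0.0773), donor-derived day 56 (0.0944) or endogenous day 56 library (0.120), and Birc3 without the donor-derived day 40 (0.118), donor-derived day 56 (0.0517) or endogenous day 40 library (0.0650), and DESeq2 called neither (0.1003 and 0.165).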

How the data were processed

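RNA was counted per cell by droplet sequencing (10x) in 5 libraries. The authors deposited matrices of UMI counts, whole numbers with no scaling, for human, mouse and reporter features. Cell Ranger, STARsolo, Seurat and the builds GRCm38 and GRCh38 are named in the submitters' processing notes. The sources used here do not give which tool called the barcodes.

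Barcodes over 10% human counts (192, control only), under 500 genes or over 20% mitochondrial counts (38 in all) and Scrublet doublets (48) were left out. Cells were scaled to 10000 and clustered (2000 variable genes, 30 components, 15 neighbours, Leiden resolution 1, seed 1) in Python 3.11.15 with scanpy 1.11.5 and leidenalg 0.10.2. Clusters were named "-like" from at least 3 detected markers of the best list, with more of that list among the 10 leading genes than of any other list. A rule added after seeing the data also allowed a name with at least 90% of the list detected. It needed no other list to be ahead among the leading genes and no cell-cycle gene among them. No member was a marker. Levels (CPM) are UMIs per 1000000 UMIs of the summed cells.

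UMI counts were summed per library and tested with edgeR 4.0.16 (R 4.3.3; TMM scaling, genes kept by filterByExpr, and its robust quasi-likelihood F-test) with Benjamini-Hochberg adjustment over all genes tested and a threshold of 0.05. The SE is the log2 fold change, unsigned, divided by the square root of F. The 2 donor-derived and 2 endogenous libraries entered without a block, and Spib-positive and Spib-negative sums with the library as a block. Libraries of a day come from 1 recipient, so the recipient block is a true pairing. Deviations from the group means correlated at 0.137, 0.253 and 0.134 within a recipient in epithelial, basal-like and secretory-like cells. Alternatives were this block, DESeq2 1.42.0, other scaling, filter and clustering, cells thinned to 5000 UMIs, cell types left out and each library left out. The tests were checked on simulated counts with the same spread between libraries for every gene and no effect of day or recipient. That check does not cover the large differences between the donor-derived libraries. Shares have Clopper-Pearson and levels Poisson 95% intervals, and bounds on a fold change take a count of 0 as 3 counts.

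Named were the members, up to 4 called genes of each list by fold change, Tnfsf11, Ccr6 and Ccr1, and the 10 genes most like Spib, of which 1 is not reported here. Members and lists were chosen with earlier results of these data known. Sequences and coordinates are RefSeq's, of GRCm38.p6.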

Additional observations from a re-analysis of the deposited data

Results flagged for a closer look

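The donor-derived against endogenous difference of 3 members, Spib, Ccl9 and Ccl20, was not the same in basal-like and secretory-like cells. Set as the log2 fold change in basal-like cells minus that in secretory-like cells, it was 3.34 ± 0.59 for Spib (edgeR interaction of cell class and group, adjusted p = 0.00519), 3.13 ± 0.60 for Ccl9 (adjusted p = 0.0107) and −2.24 ± 0.32 for Ccl20 (adjusted p = 0.00980), where 598 of 11749 genes were called. Ccl20 stood at 179 and 38.4 CPM in donor-derived against 453 and 379 CPM in endogenous basal-like cells, and at 81.7 and 8.20 CPM against 34.6 and 22.7 CPM in secretory-like cells. The Spib and Ccl9 levels behind the first 2 values are low: Spib lay between 0.335 and 27.7 CPM and Ccl9 between 0.559 and 42.2 CPM in these 8 sums. The Spib value of secretory-like cells rests on 13 and 2 UMIs in donor-derived cells, against 37 and 2 in endogenous cells, with 30 of the 37 in 1 cell. For Ccl9 the donor-derived to endogenous ratio was 8.69 in basal-like and 0.597 in secretory-like cells at day 40, and 3.85 and 3.59 at day 56, so the classes lay apart at day 40 and close at day 56.

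Tnfaip2 differed in opposite directions in the 2 cell classes on both days. It was higher in both donor-derived libraries in basal-like cells (92.3 and 29.97 CPM against 7.56 and 2.36 CPM in endogenous cells) and lower in both in secretory-like cells (28.8 and 18.2 CPM against 37.7 and 81.4 CPM). The difference of these 2 effects was 4.596 ± 0.964 on the log2 scale and was not called (adjusted p = 0.189).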

How the results depend on the processing

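Counts of called genes moved by over 1.5 times in several alternatives, and among the members 452 alternative log2 fold changes kept their direction and side of the threshold, 73 passed it newly, 29 no longer passed it and 27 changed sign. Leaving out 1 library at a time gave 0 to 4851 called genes in all epithelial cells (1813 with all libraries), 309 to 2071 in basal-like cells (1230), 127 to 503 in cluster 10 (216) and 721 to 2379 between Spib-positive and Spib-negative cells (1657). With the recipient as a replicate block basal-like cells gave 1911 called genes, and without the library block the Spib-positive comparison gave 659. The recipient block left the counts at 1815 in epithelial cells, 1529 in secretory-like cells, 957 in Spib-positive cells and 235 in cluster 10, and besides the calls named above it changed no call of a member. DESeq2 gave 914 called genes in secretory-like cells and 135 in cluster 10. Without the filter on low counts there were 2469 in basal-like cells, 1802 in Spib-positive cells of the 2 groups and 469 in cluster 10. Leaving out tuft-like cells gave 230 between donor-derived and endogenous Spib-positive cells (963) and 2699 between Spib-positive and Spib-negative cells. The comparison of Spib-positive with Spib-negative cells gave 1081 without cells holding an immune UMI and 214 without cluster 10.

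Signs turned as follows (log2 fold changes), and the cause was not tested. In all epithelial cells, the values over libraries left out ran from −1.46 to 1.41 for Gp2, −0.20 to 2.42 for Ccl20 and −7.90 to 0.34 for Tnfrsf11b, and without Spib-positive cells they were −0.97 for Gp2, −0.14 for Ccl20 and −0.46 for Aif1. In secretory-like cells they ran from −3.48 to 2.23 for Spib, −1.80 to 2.43 for Ccl9 and −1.97 to 1.27 for Ccl20, which was −0.0298 with the recipient block. In donor-derived against endogenous Spib-positive cells Ccl20 ran from −0.0846 to 0.72, and without tuft-like cells Gp2 was −0.0325, Ccl20 −0.40 and Marcksl1 −0.0435. In cluster 10 they ran from −0.0388 to 0.37 for Spib, −0.24 to 0.31 for Gp2, −0.10 to 0.15 for Ccl9, −0.12 to 0.24 for Tnfaip2, −1.04 to 0.0802 for Marcksl1 and −0.45 to 0.24 for Relb. There Ccl9 was −0.0107 under DESeq2 and −0.0111 under RLE scaling, and Relb was 0.10 in cells with 10 or more Spib UMIs. Between Spib-positive and Spib-negative cells Gp2 was −0.0245 without cluster 10.

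Thinning each cell to 5000 UMIs moved 41 of 50 shares of epithelial cells with a UMI by more than their interval, and Spib was then found in 18.2% and 2.10% of donor-derived cells, against 3.46% and 3.52% of endogenous cells, with 1.31% in the control. Libraries number 2 a group and 1 control, immune cells of the donor-derived libraries number 11 and 1, and cluster 10 has 9 and 8 endogenous cells, which limits what these comparisons can detect.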

Other observations

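In the donor-derived day 40 library, 1 of 2 cells of the dendritic-like cluster led by Xcr1 carried 38 Spib, 95 Ccl9 and 65 Ccl20 UMIs. The endogenous cells of that cluster had no Spib or Ccl9 UMI on either day. Cluster 10 cells of the same library carried medians of 35, 71 and 91 UMIs of these 3 genes. Over all libraries Epcam was found in 93.3% and Ptprc in 97.3% of the cells of the Xcr1-led cluster. Whether the 1 cell held RNA of 2 cells was not tested beyond the removal of Scrublet doublets.

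Outside cluster 10, Spib, Ccl9, Ccl20 and Tnfaip2 were found together in a further set of epithelial cells. All 4 were in 252 and 29 donor-derived cells, of which 204 and 25 were of cluster 10, against 15 and 8 endogenous cells, of which 9 and 8 were of cluster 10, and in no tuft-like or control cell.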
